A study of Homo sapiens with 6 samples.

Results

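The regions described here are stretches of chromatin that carried H3K27me3 in endothelial cells derived in the condition labelled Vc- and had no counterpart in the condition labelled Vc+. An island is a stretch of enriched windows that the submitters' caller joined, and each island has a deposited score. Islands of the Vc- H3K27me3 list on chromosomes 1 to 22 were taken when their score was at least 6 and no Vc+ H3K27me3 island overlapped them or lay within 5 kb of either edge. This gave 578 of 8893 islands (6.5%), or 9.85% of the 5871 islands that met the score limit. A further 5047 of those 5871 overlapped a Vc+ island, and 246 did not overlap one but had one within 5 kb. The 4 lists of the series held 62927 islands in all on chromosomes 1 to 22 and X.

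The cells were GATA2+ endothelial cells derived from the established human embryonic stem cell line H1, grown without (Vc-) or with (Vc+) Vc, spelled out as vitamin C in the title of the series. H1 was the only line. Each condition had 1 library for H3K4me3, 1 for H3K27me3 and an input that was not used here. The design text speaks of GATA2/eGFP+ and GATA2/eGFP- cells, while every label says GATA2+, and the protocol names antibodies to H3K27me3 alone while the sample labels name both marks. All 4 file names carry the condition opposite to the label of their sample. Islands are called Vc- or Vc+ by the labels throughout, and with the file names' conditions each direction given here would be the opposite. With 1 library per mark and condition there is no replicate check and no test between conditions, and all intervals below are exact Clopper-Pearson 95% intervals that cover counting error only. The read depth behind the lists is unknown. H3K4me3 was called at an end of 19 of 20 endothelial genes in Vc- and 20 of 20 in Vc+, and at 7 of 24 blood cell markers in each. The share over all protein-coding genes was not taken.

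H3K27me3 is written by Polycomb repressive complex 2 and is removed by the KDM6 demethylases, which need iron and oxoglutarate and whose activity vitamin C can support. It covers genes of lineages that a cell has not taken, often at CpG-rich promoters. H3K4me3 marks promoters that are active or poised, and a promoter with both marks is called bivalent.

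The gene starts that lay inside the highest-scoring of these islands show the base composition involved, so 4 promoters are printed, from 250 bases before to 50 after the start, 5′ to 3′ on the gene's strand (RefSeq, GRCh38.p14), with each CG dinucleotide in capitals. TSPAN4, a tetraspanin membrane protein, has this start inside its span, at chr11:849606-849905 on the plus strand. TTYH1, a chloride channel family member of neural tissue, and LOC124904770 share an island on the plus strand of chromosome 19, at chr19:54415214-54415513 and chr19:54416852-54417151. TOX2, an HMG-box nuclear protein, has a listed start inside its span too, at chr20:43915880-43916179 on the plus strand.
TSPAN4: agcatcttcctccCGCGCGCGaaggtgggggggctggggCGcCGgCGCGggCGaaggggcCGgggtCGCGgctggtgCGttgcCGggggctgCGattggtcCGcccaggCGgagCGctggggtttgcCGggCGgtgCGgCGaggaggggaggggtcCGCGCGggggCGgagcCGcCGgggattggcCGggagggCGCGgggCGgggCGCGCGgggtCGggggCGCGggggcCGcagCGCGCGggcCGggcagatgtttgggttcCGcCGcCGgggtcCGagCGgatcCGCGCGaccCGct
TTYH1: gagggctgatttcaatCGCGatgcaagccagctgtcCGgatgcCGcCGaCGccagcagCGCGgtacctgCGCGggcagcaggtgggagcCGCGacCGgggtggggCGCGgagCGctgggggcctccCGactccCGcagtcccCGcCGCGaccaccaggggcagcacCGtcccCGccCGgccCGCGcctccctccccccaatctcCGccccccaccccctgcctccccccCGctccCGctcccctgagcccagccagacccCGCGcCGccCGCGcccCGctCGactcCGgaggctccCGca
LOC124904770: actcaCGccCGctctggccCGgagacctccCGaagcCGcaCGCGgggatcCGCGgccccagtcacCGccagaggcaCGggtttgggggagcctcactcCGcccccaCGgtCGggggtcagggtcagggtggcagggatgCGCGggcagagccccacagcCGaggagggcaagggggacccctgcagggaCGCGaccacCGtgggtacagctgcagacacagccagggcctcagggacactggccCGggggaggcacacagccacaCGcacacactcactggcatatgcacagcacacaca
TOX2: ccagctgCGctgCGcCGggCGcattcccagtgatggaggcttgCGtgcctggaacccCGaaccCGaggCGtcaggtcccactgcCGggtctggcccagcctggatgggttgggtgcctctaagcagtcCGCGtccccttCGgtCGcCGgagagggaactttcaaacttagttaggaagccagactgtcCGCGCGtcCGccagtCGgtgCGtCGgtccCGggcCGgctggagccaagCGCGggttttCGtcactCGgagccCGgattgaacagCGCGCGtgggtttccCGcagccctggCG

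These windows held 52 CG dinucleotides at TSPAN4, 38 at TTYH1, 22 at LOC124904770 and 33 at TOX2. Over all 79 listed promoters of protein-coding genes that overlapped a Vc- alone island the median was 22 (range 5 to 52), against a median of 21 over 21156 listed promoters, 98.0% of which held at least 1 CG. The median GC content was 65.3% against 62.7%. Promoters with a GC content over 50% and an observed to expected CpG ratio over 0.6 made up 69.6% of the 79 (58.2 to 79.5), 60.3% of all listed promoters, 76.8% (74.96 to 78.6) of 2126 promoters under an H3K27me3 island in both conditions, and 78.7% (72.5 to 84.0) of 211 under a Vc+ alone island chosen by the mirrored rule. By this measure promoters in the Vc- alone islands lay between all promoters and those with H3K27me3 in both, with an interval that held the share of all promoters and overlapped that of the latter. H3K4me3 went with the CpG-rich ones, at 53 of 70 promoters with H3K4me3 in either condition and 2 of the 9 without.

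Of 1461 listed microRNA hairpins on chromosomes 1 to 22, 2 lay in a Vc- alone island. MIR125B1 encodes miR-125b, a microRNA known from blood stem cells and endothelium. It lay at chr11:122099757-122099844 on the minus strand, inside an island of 1.8 kb from 122098601 to 122100400 (score 8.71) that overlapped H3K4me3 in Vc- alone. The nearest Vc+ H3K27me3 island was 870.6 kb away. MIR2276 at chr13:24162416-24162504 on the plus strand lay inside SPATA13, in an island at the score limit (6.08) with H3K4me3 in both conditions. The mature arms are printed with the seed, bases 2 to 8, in capitals, and no seed is shared among them.
hsa-miR-125b-5p: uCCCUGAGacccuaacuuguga
hsa-miR-125b-1-3p: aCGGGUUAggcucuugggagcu
hsa-miR-2276-5p: gCCCUCUGucaccuugcagacg
hsa-miR-2276-3p: uCUGCAAGugucagaggcgagg

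The Vc- alone islands were short and of modest score. Their median width was 2.4 kb (quartiles 1.8 and 3.2, range 0.4 to 14.4), against 4 kb (2.6 and 6.4) for the 5047 islands in both. Their median score was 8.60 (quartiles 7.01 and 11.9, highest 81.2), against 25.4 in the islands in both. The score and the absence from the Vc+ list chose the islands, so these values describe the choice and no test was made. The nearest Vc+ island lay at a median of 56.8 kb (quartiles 16.7 and 209 kb, range 5.2 kb to 3981 kb). At the score limit the lowest islands inside it lay at the start of UBE4A, near LEMD3 and in NTN1, all at 6.02, and the highest outside it lay near LOC101927345, RAD21 and OR2S2, all at 5.96. At the distance limit the nearest islands inside it, near ZNF716, in NRXN3 and near CYP2A6, were 5.2, 5.2 and 5.4 kb from a Vc+ island, and the farthest outside it, with PROS1, LOC124905938 and SEMA3D as nearest genes, were 5 kb away.

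**Figure D1:**
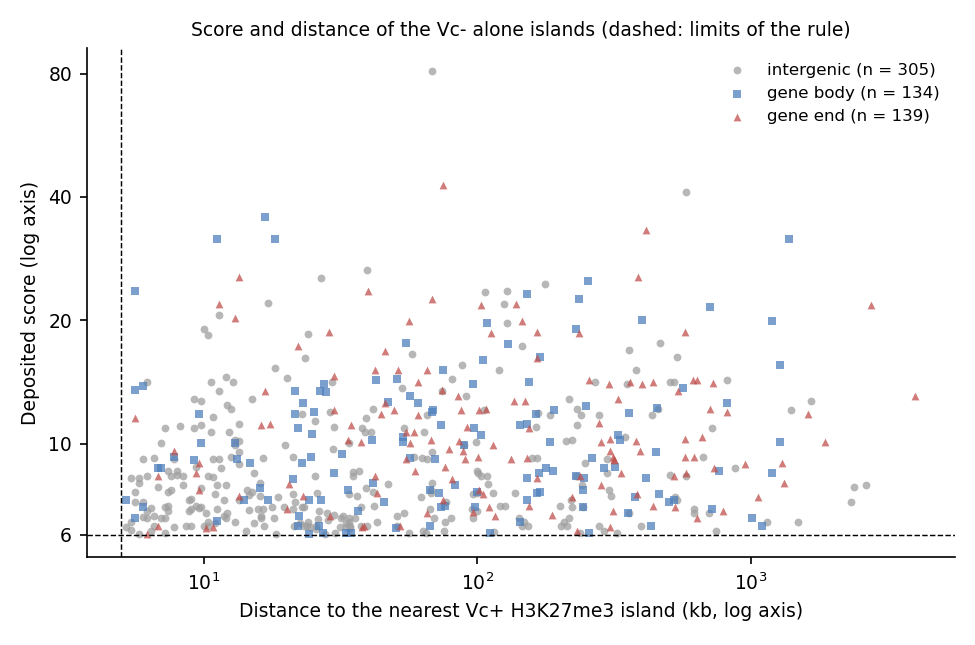
Each point is 1 of the 578 Vc- alone islands, with the distance to the nearest Vc+ H3K27me3 island on the x axis (kb, log axis) and the deposited score on the y axis (log axis). Dashed lines mark the limits of the rule at a score of 6 and 5 kb, and gene-end islands (red) are scarce among those within 20 kb of a Vc+ island and more common farther out. Islands in long stretches without genes are included.

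Location was read next, since the rule did not use it. A total of 139 islands (24.0%, 20.6 to 27.7) lay within 1 kb of either end of a protein-coding gene, 134 (23.2%, 19.8 to 26.8) inside a gene away from its ends and 305 (52.8%, 48.6 to 56.9) between genes. The islands in both conditions were placed differently, with 49.7% (48.3 to 51.1) at a gene end and 33.6% (32.3 to 34.9) between genes. The Vc+ alone islands were closer, with 28.1% (25.4 to 30.8) and 48.5% (45.5 to 51.5). Score moved with location in all of these. Among Vc- islands with a score from 6 to 8, the gene-end share was 13.9% (9.8 to 18.8) of the 245 Vc- alone islands and 14.8% (11.9 to 18.2) of the 512 in both. From 8 to 12 it was 29.0% (22.7 to 36.0) of 193 and 25.8% (22.6 to 29.1) of 722. At 12 and above it was 35.0% (27.1 to 43.5) of 140 and 58.9% (57.3 to 60.5) of 3813, a band in which the islands in both reach far higher scores. Below a score of 12, then, the intervals for the share at gene ends overlapped.

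**Figure D2:**
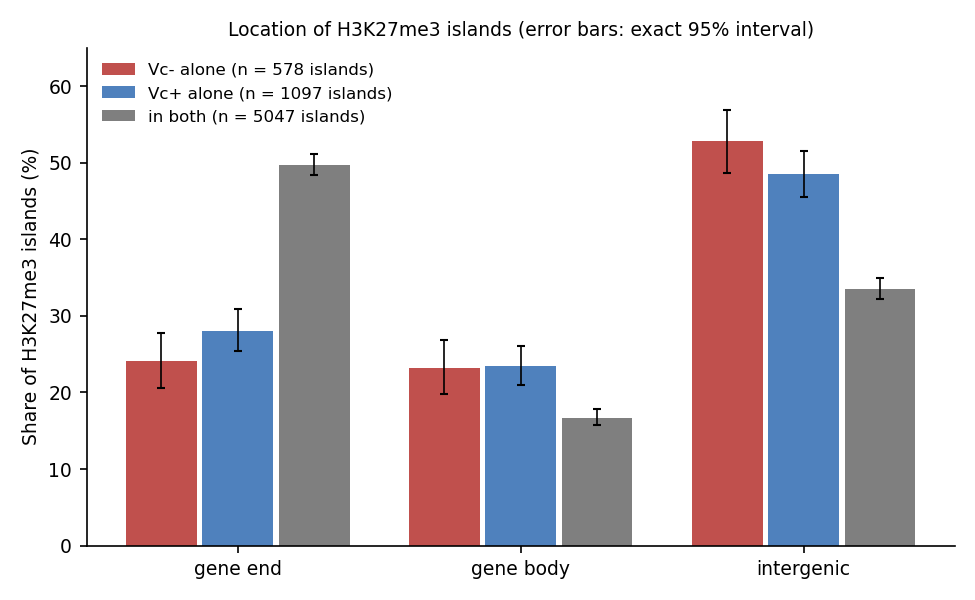
Bars give the share of H3K27me3 islands (y axis, %) at a gene end, in a gene body and between genes for the Vc- alone islands (red, n = 578), the Vc+ alone islands (blue, n = 1097) and the Vc- islands that overlap a Vc+ island (grey, n = 5047), with exact 95% intervals. The red bars stand at 24.0%, 23.2% and 52.8%, and the grey gene-end bar at 49.7%.

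Of the 139 gene-end islands, 98 lay at a gene start as far as RefSeq lists starts, 14 at the far end alone, and 27 at genes whose start was not listed. A further 24 of the 134 gene-body islands lay within 1 kb of a listed start inside the gene, as at TSPAN4. Exons, introns and untranslated regions were not told apart. Gene-end islands were fewer near Vc+ islands. Their share was 10.3% of the 78 islands 5 to 10 kb from a Vc+ island, 11.3% of 80 at 10 to 20 kb, 23.6% of 203 at 20 to 100 kb, 34.2% of 196 at 100 to 1000 kb and 33.3% of 21 beyond that. Among the 305 islands between genes, 23 lay at an end of a long non-coding RNA gene, and 155 (50.8%, 45.1 to 56.6) were over 100 kb from any protein-coding gene. Position along each chromosome was read against its longest stretch without a RefSeq gene of any type, here called the gene-free gap. At most 5 Mb from it lay 152 islands (26.3%, 22.8 to 30.1), against 15.7% (14.7 to 16.7) of the islands in both and 14.1% (12.1 to 16.3) of the Vc+ alone islands, and 136 of the 152 were between genes. In the band from 6 to 8 the share near a gap was 35.5% (29.5 to 41.9) for Vc- alone and 37.9% (33.7 to 42.3) for islands in both. Without the islands near a gap, 30.3% (26.0 to 34.9) of the remaining 426 islands lay at a gene end and 39.7% (35.0 to 44.5) between genes. The gene-end shares by distance to a Vc+ island include the islands near a gap and were not taken without them.

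Chromosomes did not share evenly in the Vc- alone islands. Chromosome 19 held the most, 47 (8.13%, 6.04 to 10.7), against 4.58% (4.02 to 5.19) of the islands in both, 6.75% (5.33 to 8.39) of the Vc+ alone islands and 7.59% of protein-coding genes. Chromosome 21 held 23 (3.98%, 2.54 to 5.91) against 1.43% (1.12 to 1.79) of the islands in both, so that 22.8% of its Vc- islands that met the score limit were alone. Of these 23, 7 lay near the gene-free gap, which ended at 5010454 on this chromosome. Beyond its 5 Mb margin, runs of Vc- alone islands with TPTE, POTED and RBM11 as nearest genes stood between 11284601 and 14274800. Only the longest gene-free stretch was marked, so these runs may still lie in other stretches poor in genes. Chromosome 9 held 14 (2.42%, 1.33 to 4.03) against 9.19% (8.41 to 10.0).

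H3K4me3, which the rule did not use, was then read over the islands in each condition. In Vc- 201 of the 578 (34.8%, 30.9 to 38.8) overlapped an H3K4me3 island by at least 1 bp, and in Vc+ 192 (33.2%, 29.4 to 37.2). The mark was called in both conditions at 165, in Vc- alone at 36, in Vc+ alone at 27 and in neither at 350. The intervals of the H3K4me3 shares in the conditions overlapped. Islands with H3K27me3 in both overlapped H3K4me3 more often, at 69.1% (67.8 to 70.3) in Vc- and 70.4% (69.1 to 71.7) in Vc+. In narrow score bands this gap was smaller. From 6 to 8 the share with H3K4me3 in Vc- was 21.6% (16.6 to 27.3) for Vc- alone and 30.3% (26.3 to 34.5) for islands in both, and from 8 to 12 it was 37.3% (30.5 to 44.5) and 46.0% (42.3 to 49.7), with intervals that overlapped in both bands. At 12 and above it was 54.3% (45.7 to 62.7) and 78.7% (77.3 to 79.9), and the intervals lay apart. That band has no upper limit, and the islands in both reach far higher scores in it. The shares with H3K4me3 in Vc+ were 20.4% (15.5 to 26.0) and 30.7% (26.7 to 34.9) from 6 to 8, with intervals apart, 35.8% (29.0 to 43.0) and 45.7% (42.0 to 49.4) from 8 to 12, with overlap, and 52.1% (43.5 to 60.7) and 80.4% (79.1 to 81.7) at 12 and above, with intervals apart.

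**Figure D3:**
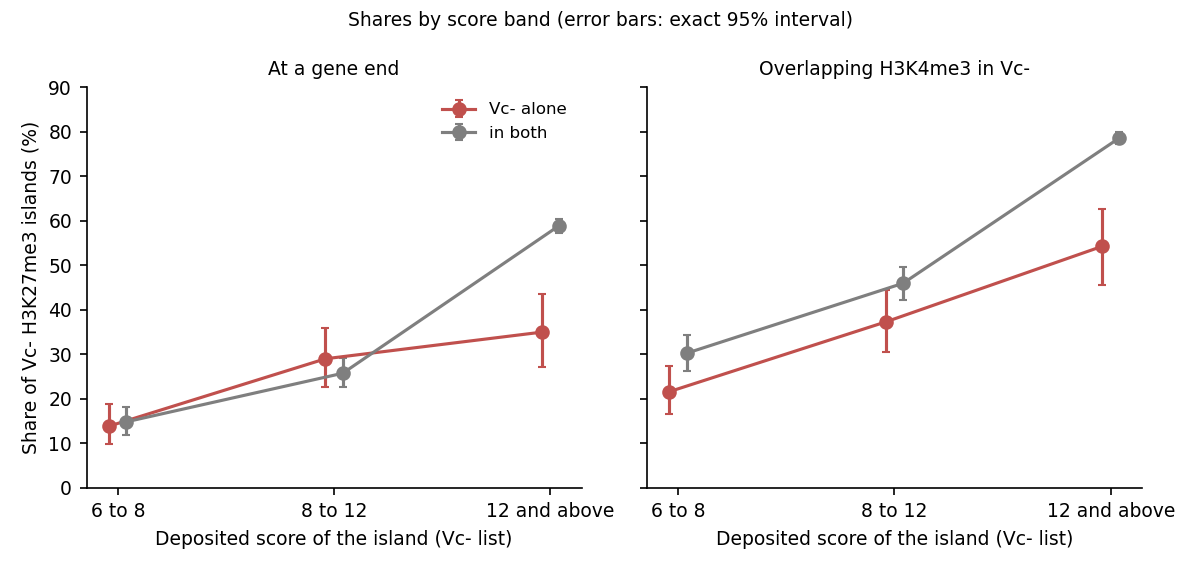
Points give the share of Vc- H3K27me3 islands (y axis, %) at a gene end (left) and overlapping H3K4me3 in Vc- (right) by band of deposited score (x axis), for islands in Vc- alone (red) and in both conditions (grey), with exact 95% intervals. The gene-end shares overlap below a score of 12, while the H3K4me3 shares of Vc- alone islands, 21.6%, 37.3% and 54.3%, lie below the grey points. The top band has no upper limit, and the islands in both reach far higher scores in it.

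By location, H3K4me3 was called at 100 of 139 gene-end islands in Vc- (71.9%, 63.7 to 79.2) and at 72.7% (64.5 to 79.9) in Vc+. It was called at 52 and 53 of 134 gene-body islands, 38.8% (30.5 to 47.6) and 39.6% (31.2 to 48.4), and at 49 and 38 of 305 islands between genes, 16.1% (12.1 to 20.7) and 12.5% (9.0 to 16.7). Where a gene-body island lay at a listed inner start, 23 of 24 had H3K4me3 in at least 1 condition, against 37 of 110 away from one. At every location the shares in the islands in both were larger, with 88.7% (87.4 to 89.9), 64.3% (61.0 to 67.6) and 42.3% (39.96 to 44.7) in Vc-. These islands were also wider (median 4 kb against 2.4 kb) and higher in score (25.4 against 8.60). The shares by location were not matched for either, and an overlap of 1 bp is easier to meet in a wide island. A call in only 1 condition was made at 63 Vc- alone islands, 27.6% (21.9 to 33.9) of the 228 with H3K4me3 in either. This share was 13.3% (10.3 to 16.9) for the Vc+ alone islands and 9.76% (8.82 to 10.8) for the islands in both. It moved with the score in the islands in both, at 34.0% (27.3 to 41.3) from 6 to 8, 17.1% (13.4 to 21.4) from 8 to 12 and 7.46% (6.57 to 8.43) at 12 and above. In the Vc- alone islands it was 28.3% (17.5 to 41.4), 28.05% (18.7 to 39.1) and 26.7% (17.8 to 37.4), so that the sets lay apart at 12 and above, with overlapping intervals below. The band of 12 and above does not match the sets, since the islands in both reach far higher scores there. Where both conditions had the mark, it filled a median of 0.8 kb of the Vc- alone island in each. As a share of island width the median was 40% in Vc- and 37.5% in Vc+, against 30.4% and 34.5% in the islands in both.

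**Figure D4:**
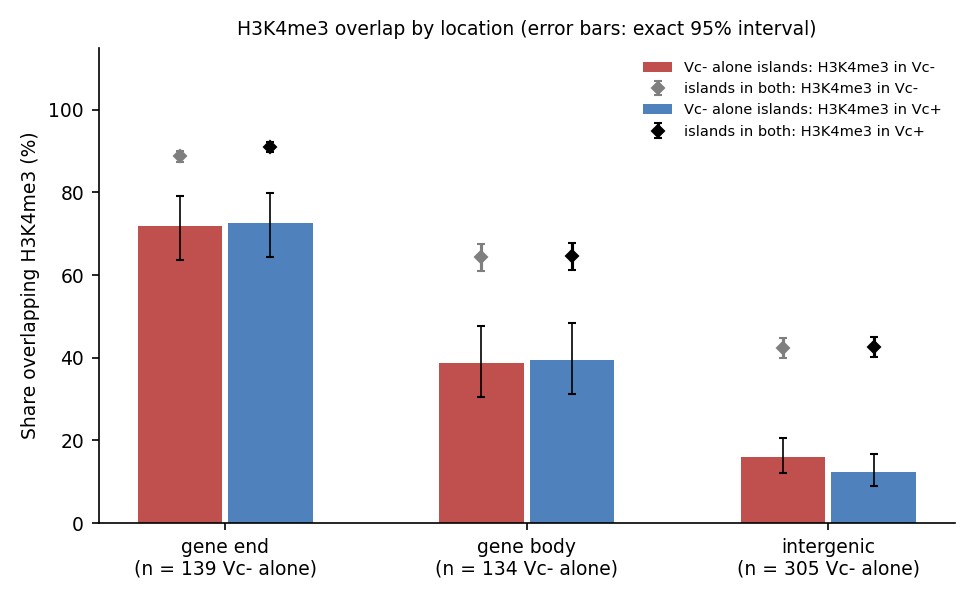
Bars give the share of Vc- alone islands (y axis, %) that overlap H3K4me3 in Vc- (red) and in Vc+ (blue) at gene ends, in gene bodies and between genes, with exact 95% intervals. Diamonds give the same shares for the islands with H3K27me3 in both conditions, and stand above the bars at each location, as at gene ends with 88.7% and 91.1% against 71.9% and 72.7%. The sets were not matched for width or score.

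The 63 islands with H3K4me3 in 1 condition alone are described by those of highest score. In Vc- alone the highest-scoring were inside PRR16 (chromosome 5, 120702001 to 120703000, score 31.6), at the start of NMRK2, a nicotinamide riboside kinase of muscle (chromosome 19, 3933001 to 3934800, 19.97), and at the start of TMEM196 (chromosome 7, 19770201 to 19773000, 18.8). These were followed by islands 34.8 kb from MSX2 (16.6), 49.4 kb from ATF3, a stress-induced transcription factor (15.6), and 93.1 kb from CDK13 (15.3). In Vc+ alone they lay at CHRNA4, a subunit of the neuronal nicotinic acetylcholine receptor (chromosome 20, 63359801 to 63362400, 21.8), in HCRTR2, an orexin receptor (20.1), at the start of AHNAK2 (15.1), 390 kb from LOC101927345 on chromosome 21 (14.4), at CALB1, a neuronal calcium-binding protein (14.3), and at the start of B3GNT3 (13.5). At CHRNA4 the Vc- lists thus held H3K27me3 and no H3K4me3, and the Vc+ lists 0.8 kb of H3K4me3 in the same stretch and no H3K27me3. NMRK2 showed 0.6 kb of H3K4me3 together with H3K27me3 in Vc- and neither mark there in Vc+.

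The genes at these islands came next. A total of 158 of 19126 protein-coding genes (0.826%) had an end within 1 kb of a Vc- alone island, on all 22 chromosomes, against 342 (1.79%) for the Vc+ alone islands and 2718 (14.2%) for the islands in both. At 136 of the 158 (86.1%, 79.7 to 91.1) H3K4me3 was called at a gene end in both conditions, at 3 in Vc- alone, at 7 in Vc+ alone and at 12 in neither. The same share was not taken over all protein-coding genes, so these counts do not set the 158 genes apart from others. The 3 were NMRK2, SIAH3 and ZNF574. The 7 were AHNAK2, B3GNT3, CALB1, CHRNA4, DPF1, GALNT9 and MEF2B.

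The islands of highest score stood at varied places. The first (81.2, 3.2 kb, chromosome 1, 144785001 to 144788200) lay between genes, 7.48 kb from LOC105371216, with no H3K4me3. The next (42.9, chromosome 19, 18868601 to 18871000) lay at the far ends of UPF1, a helicase of nonsense-mediated decay, CERS1, a ceramide synthase, and GDF1, a TGF-beta family ligand, and had H3K4me3 in both conditions. The third (41.2) lay 10.3 kb from POTEB2 on chromosome 15. It was followed by the inner start of TSPAN4 (35.8), the start of TTYH1 (33.3, chromosome 19, 54414601 to 54418000, no H3K4me3), and islands inside PRR16, IL17REL and TBKBP1 (31.6 each). Then came a stretch 272 kb from FBXW7 (26.6), DENND3 and the leucine-rich repeat gene LINGO3 (25.5 each; at LINGO3 a Vc+ H3K27me3 island lay 0.436 kb from an end of the gene), a stretch 36.7 kb from RBM27-POU4F3 (25.4), the inside of NCKAP5 (25.004), a stretch 185 kb from the homeobox gene IRX1 (24.6) and one 9.07 kb from PPIF (23.6). Of these 15, 7 lacked H3K4me3 in both conditions. The widest islands, of 14.4, 8.8, 8.2, 7.6 and 7.2 kb, all lay between genes, 343 kb or more from the nearest one (LOC101927345, LINC02798, POTEA, OR11H1 and ZNF254). All of them, and the high-scoring islands near LOC105371216 and POTEB2, lay at most 5 Mb from a gene-free gap.

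Far from any Vc+ island stood PAM, a peptide-amidating enzyme, where an island without H3K4me3 ended 0.782 kb before the start, 3981 kb from the nearest one, and NCAM2, a neural cell adhesion molecule. At NCAM2 (gene 4685, GRCh38 chromosome 21, 20998409 to 21543329, plus strand) the island covered the start (20996801 to 20999400, score 21.8), the nearest Vc+ island was 2749 kb away, and H3K4me3 filled 2 kb of it in Vc- and 2.2 kb in Vc+. A second island, 378 kb from NCAM2, stood 2369 kb from the Vc+ list and had no H3K4me3. The others at great distance lay 54.8 kb from ARHGAP18 (2632 kb) and 123 kb from FAM170A (2314 kb).

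Genes of the blood and endothelial programme were absent from the gene ends. None of 27 blood regulators, 24 blood cell markers, 20 endothelial genes or 19 arterial and Notch genes had an end at a Vc- alone island, where a share equal to that of all genes, 0.826%, would be under 1 gene in each list. Inside FLI1, an ETS factor of blood and endothelium, an island of 3 kb (chromosome 11, 128693601 to 128696600, score 12.1) lay wholly under H3K4me3 in both conditions, 191 kb from the nearest Vc+ H3K27me3 island. None of 22 neural transcription factors, 15 cardiac genes, 14 endoderm genes, 13 pluripotency genes, 23 chromatin modifiers, 12 vitamin C handling genes or 13 housekeeping genes was at one either. All 22 neural transcription factors had an end at an island in both conditions, as did 9 of the 14 endoderm genes, against 14.2% of all genes. So did 7 of 27 blood regulators, 2 of 24 blood cell markers, 4 of 20 endothelial genes and 6 of 19 arterial and Notch genes. Of the rest, 5 of 15 cardiac genes, 4 of 13 pluripotency genes, 7 of 23 chromatin modifiers and 1 of 12 vitamin C handling genes did. None of the 13 housekeeping genes did.

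Neuronal surface genes were among the genes touched. Of 20 neuronal adhesion and synapse genes, NCAM2 and CNTNAP2, a neurexin family member, had an end at a Vc- alone island, and NRXN3 and TENM2 held one inside. In a list of 20 these counts stand beside 0.826% of all genes with one at an end and 1.53% with one at an end or inside. Gene length was not taken into account, and a long gene has more room for an island inside. An end at an island in both conditions was found at 8 of the 20 (40%, against 14.2% of all genes). At CNTNAP2 (chromosome 7, 146117601 to 146119800, score 8.02) the island lay at the start and held no H3K4me3, although the mark was called within 1 kb of a gene end in both conditions. Of 26 neurotransmitter receptors and channels CHRNA4 had one at an end and GRIN2B, an NMDA receptor subunit, one inside, while 17 of the 26 (65.4%, against 14.2% of all genes) had an end at an island in both conditions. Outside these lists and chosen after their values were seen, GRM3, a metabotropic glutamate receptor, ELAVL4, a neuronal RNA-binding protein, and EPHA3, an ephrin receptor, had an island at their start with H3K4me3 in both conditions, at scores of 9.27, 9.27 and 8.96.

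The lists of developmental regulators each held at most 1 gene with an end at a Vc- alone island, and in lists of this size the 0.826% of all genes comes to about 1 gene or less. MSX2, a homeobox factor of bone and neural crest, was the 1 of 22 mesenchymal genes and the 1 of 118 homeobox genes at a Vc- alone island, where 104 of the 118 were at islands in both (88.1%, against 14.2% of all genes). Its island (chromosome 5, 174730801 to 174736200, score 21.99) ran from the far end of the gene (174724582 to 174730896, plus strand) for 5.4 kb, with 3 kb of H3K4me3 in Vc- and 2.4 kb in Vc+. A further 2 Vc- alone islands lay upstream within 48.2 kb, and the nearest Vc+ island was 11.4 kb away. NOG, a BMP antagonist, was the 1 of 32 BMP, TGF-beta and WNT genes, with an island of 2.2 kb over the gene (chromosome 17, 56593201 to 56595400, 8.35) and H3K4me3 over 1.8 kb of it in each condition. Its nearest Vc+ H3K27me3 island was 237.6 kb away. FOXH1, a cofactor of nodal signalling, was the 1 of 49 forkhead genes. None of 15 T-box and 18 SOX genes was at one. KCNJ8 was the 1 of 93 potassium channel genes (1.08%), and COL12A1 the 1 of 42 collagen genes, with a Vc+ H3K27me3 island at an end of the gene as well. There were 4 of 365 solute carriers (1.10%, against 0.826% of all genes), SLC25A28, SLC35C1, SLC43A1 and SLC44A3, none of 63 protocadherins and none of 389 olfactory receptors. ZEB1, of the mesenchymal list, held an island inside, without H3K4me3.

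Some genes of inflammation and immunity also had an end at a Vc- alone island. They belong to no list and were named after their values were seen. FOS, an immediate early transcription factor, had an island of 2.8 kb over most of the gene (chromosome 14, 75278801 to 75281600, score 10.4), with H3K4me3 over 2.4 kb of it in Vc- and 2.2 kb in Vc+. The nearest Vc+ H3K27me3 island to it was 663.8 kb away. CXCL1, a neutrophil chemokine (12.1), IL1RAP, the co-receptor of interleukin-1 (17.3), and IFNLR1, the interferon lambda receptor (10.1), had H3K4me3 in both conditions under the island. NFKB2, an NF-kappaB subunit (7.47), had it under the island in Vc+ alone, and within 1 kb of a gene end in both conditions. HLA-G, a non-classical class I molecule (19.97), and SPIB, an ETS factor of B cells (22.5), had none under the island in either, although SPIB had it within 1 kb of a gene end.

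Zinc finger genes of the ZNF series, many of them repressors of repeated elements, made up the largest of the listed families at Vc- alone islands. Of 498 such genes 11 (2.21%, against 0.826% of all genes) had an end at a Vc- alone island and 15 more held one inside, 26 in all (5.22%), against 1.53% of all protein-coding genes with an island at an end or inside. An end at a Vc+ alone island was found at 12 (2.41%) and at an island in both at 29 (5.82%), against 1.79% and 14.2% of all genes. Neighbouring ZNF genes share sequence, and reads from near-identical copies cannot be told apart in island lists. Over the 27 islands at ZNF genes H3K4me3 was called in either condition at 17, in both at 10, in Vc- alone at 7 and in Vc+ alone at 0. Its length inside the island was greater in Vc- at 14 and in Vc+ at 3, as at ZNF180 (2.6 kb against 1 kb), ZNF844 (2 kb against 0.6 kb), ZNF613 (1.2 kb against none) and ZNF354B (1 kb against none). In the other 551 islands it was greater in Vc- at 62, in Vc+ at 88 and equal at 61. The H3K4me3 comparison at ZNF genes was chosen after the values were seen. Over whole ZNF genes without a Vc- alone island, H3K4me3 covered more in Vc- at 159 and more in Vc+ at 219 of 472. Over the 26 whole ZNF genes with such an island it covered more in Vc- at 14 and more in Vc+ at 10.

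**Figure D5:**
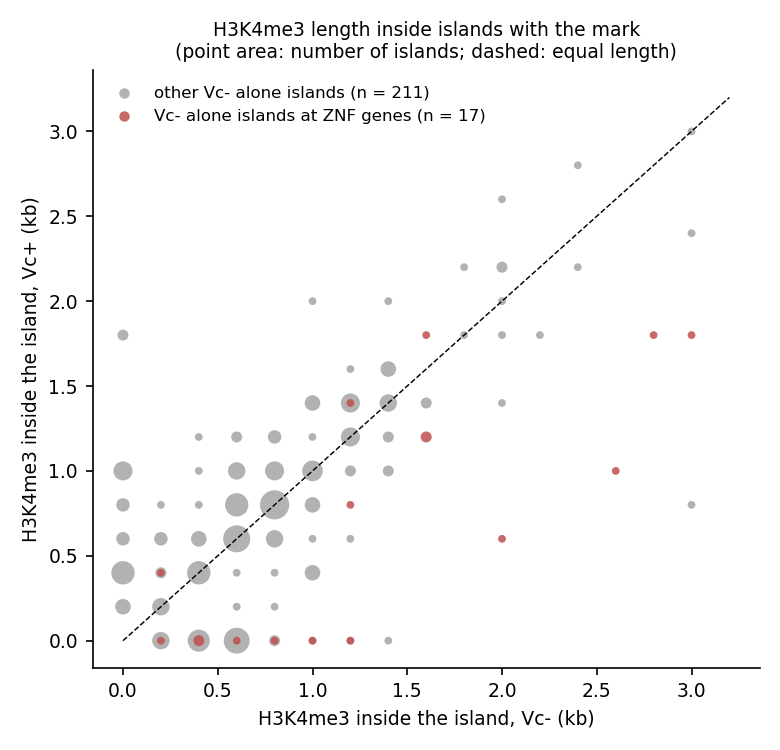
Each point places the Vc- alone islands with H3K4me3 in either condition by the length of H3K4me3 inside the island in Vc- (x axis, kb) and in Vc+ (y axis, kb), with point area proportional to the number of islands. Of the 17 islands at ZNF genes (red) 14 lie below the dashed line of equal length, and of the 211 others (grey) 62 lie below it, 88 above it and 61 on it.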

How the data were processed

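ChIP-seq of H3K4me3 and H3K27me3 was analysed from 4 deposited island lists, 1 per mark and condition, grouped by sample titles; the 2 inputs were not used. The tools named are SICER, deepTools and Bowtie2, with the builds hg38 and GRCh38, per the submitters' processing notes, and no role or setting is given. The deposited score of each island is the authors' and was used only within a list. It runs from just above 2 to about 309 and then jumps to 1000, and no header states its scale. Island widths are multiples of 200 bp. Starts count from 0 in the files and from 1 here.

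Vc- alone islands were selected with a gap of exactly 5 kb counted as within. Vc+ alone islands were selected by the mirrored rule. Overlap means at least 1 bp. Genes are RefSeq protein-coding genes (GRCh38.p14, 19126 on chromosomes 1 to 22). Of these, 15101 have a listed start. A gene start is a listed start or the 5′ end of the span. Gene groups are 15 lists by name and 10 by symbol pattern. Members and lists were chosen with earlier results of these data known. Named were the 15 highest scores, the 5 widest and 5 farthest islands, islands at genes of the named lists, up to 6 per condition with H3K4me3 in that condition alone, and those at the limits; other names are said to be chosen after their values were seen. No test was made, since each group has 1 library. Alternatives varied the score and distance limits, the Vc+ list, windows, overlap and chromosomes. The selection was run on simulated islands placed so as to meet the rule, which checks recovery and cannot show wrong inclusions. On the data it gave the same number of islands as bedtools 2.31.1. Python 3.11.15, numpy 2.4.6, pandas 2.3.3, scipy 1.17.1 and matplotlib 3.10.9 were used.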

Additional observations from a re-analysis of the deposited data

How the results depend on the processing

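Of 54 recalculations 24 stayed within 1.5 times the count given or within the interval of the share given, among them island numbers from 426 to 844 and gene numbers from 112 to 216, and 30 moved further. None could change a call because no test was made. Without a score limit there were 1676 islands, with 11.6% at a gene end and H3K4me3 at 17.1% in Vc- and 15.6% in Vc+. With a score of at least 10 there were 221 islands at 90 genes, with 33.0%, 49.8% and 46.2%. Counting only overlap as presence gave 19.7%, 28.6% and 27.7%, and a distance of 50 kb gave 306 islands with 33.0%, 43.5% and 41.2%. When only Vc+ islands with a score of at least 6 counted, there were 868 islands with 18.8%, 30.9% and 28.5%. Cutting the longer Vc+ list to the covered length of the Vc- list, added after the data were seen, gave 844 islands with 19.2% at a gene end and H3K4me3 at 28.8% in Vc+. Leaving out islands near the largest gene-free gaps, also added, gave 30.3%, 42.5% and 39.9%. Gene windows of 2 kb and 500 bp gave 28.03% and 17.5% at a gene end, and 29.8% with long non-coding RNA genes. Requiring H3K4me3 over at least 25% of the island gave 25.6% in Vc- and 25.1% in Vc+. In each setting that gave both, the H3K4me3 shares in Vc- and Vc+ stood within 4 percentage points of each other. Changing the score limit, the distance or the Vc+ list changes which islands enter, so the shares shift by construction. No paired analysis was possible because each condition has 1 library per mark and no comparison was tested. An island missing from a list was not called there, which does not show that the mark was absent, and the depth behind the lists is unknown.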

Other observations

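A total of 107 of the 578 Vc- alone islands (18.5%) lay within 100 kb of another one, in 46 runs, and the runs of 3 or more were named after their values were seen. At or near named genes such runs stood at MSX2 (3 islands over 48.2 kb), at ZNF613 and ZNF615 on chromosome 19 (3 over 58.4 kb), at ZNF140, ZNF891 and ZNF268 on chromosome 12 (3 over 89.4 kb), at KIFC2, FOXH1, LRRC14, C8orf82 and ARHGAP39 on chromosome 8 (3 over 110 kb) and at AHNAK2 and GPR132 on chromosome 14 (3 over 111 kb). Other runs of 3 touched no protein-coding gene end. Their nearest genes were DCUN1D4, EMB, ZNF716, OR4A47 and TRIM51G, ALG10B, OR11H12, LOC101927345 and POTED. All of these runs but the one near POTED lay at most 5 Mb from the gene-free gap of their chromosome. Only the longest such gap per chromosome was marked. The run with the most islands, 4 over 62.4 kb, lay inside the gene-free gap of chromosome 13. Its nearest protein-coding gene, TUBA3C, was 2038 to 2097 kb away. An island of the same Vc- list lay within 20 kb of 180 of the 578, and for 69 that nearest neighbour overlapped a Vc+ island.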
